A study of Mus musculus with 80 samples.

Results

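UHRF1 KO and UHRF1 WT mouse embryonic stem cells (ESCs) were compared after 48 h in 2i by reduced representation bisulfite sequencing (RRBS), which reads cytosine methylation in CpG-rich restriction fragments. The unit of comparison was the 500-bp tile of an autosome, and a tile was taken when it had 20 or more methylation calls at 3 or more CpG positions in each of the 4 files, 2 per genotype. A call is the methylation state that 1 read gives at 1 cytosine, and the level of a tile is the percent of its calls that were methylated. In all, 30278 tiles met the rule, of 408569 autosomal tiles with a call in any of the 4 files and 1448790 with a call in any of the 29 RRBS files used here. Single files had between 34576 and 77807 tiles that met it alone, and the lower numbers were those of UHRF1 KO.

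The series has 80 samples, of which the 4 of this comparison came from an ESC line of E14 background labelled wild type or UHRF1-/-. By the study's methods the gene was floxed and was removed by a tamoxifen-inducible Cre, with recombination started 48 h before the experiment. The cells had grown in medium with fetal calf serum and LIF, and 2i is a serum-free medium with LIF and inhibitors of MEK and GSK3, which both genotypes received for 48 h. The other UHRF1 samples (serum and 24, 72, 96 and 168 h of 2i), the separate E14 line and H3K9me2 ChIP followed by bisulfite sequencing were used to place the tiles. A second UHRF1 WT sample in serum is listed, but its file held almost no positions and was not used. That group therefore had 1 sample. No RNA of the UHRF1 lines was analysed here, so the deletion itself, and the identity of the cells by marker genes, could not be checked. The labels do not say whether replicates were separate cultures, and p-values measure the spread between these samples, which may be technical.

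UHRF1 recognises hemimethylated CpGs, the state that a methylated site takes when DNA has just been copied, and brings the maintenance methyltransferase DNMT1 to them. It also binds histone H3 methylated at lysine 9. Without maintenance, a methylated site is diluted at each round of replication unless the de novo enzymes DNMT3A and DNMT3B restore it. ESCs in serum are highly methylated outside CpG islands, and they lose much of this methylation over days in 2i.

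The 4 libraries differed in depth with genotype. UHRF1 WT files held 13194331 and 14866913 calls, and UHRF1 KO files held 4025425 and 3603995. Within the tiles the median number of calls was 210 and 237 in UHRF1 WT and 65 and 57 in UHRF1 KO. Depth and genotype therefore cannot be told apart by design, and results are also given after all 4 files were thinned to the same number of calls. Between replicates of tiles at intermediate levels, the difference had an SD of 6.42 points in UHRF1 WT and 14.7 points in UHRF1 KO, so that single KO tiles carried the larger error. On the mitochondrial genome, 0.374% and 0.231% of calls were methylated in UHRF1 WT and 0.175% and 0.604% in UHRF1 KO, with 95% Wilson intervals between 0.0679% and 0.979% that cover counting error only. The 2 KO samples lay on either side of the WT samples in this measure.

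At 48 h, UHRF1 KO cells had almost no highly methylated tiles left. Tiles at 80% or more numbered 3310 and 3355 in the UHRF1 WT samples and 272 and 276 in the UHRF1 KO samples. Intermediate levels were more common instead, and tiles between 40% and 60% numbered 883 and 885 in UHRF1 WT and 2086 and 2128 in UHRF1 KO, and tiles between 20% and 40% numbered 1054 and 1056 in UHRF1 WT and 1695 and 1681 in UHRF1 KO. Both UHRF1 WT samples were at 80% or more in 3024 tiles, and in 64 of these both UHRF1 KO samples were as well. The large block of unmethylated tiles, under 5%, was of similar size in all samples, with 21087 and 21049 tiles in UHRF1 WT and 22343 and 21979 in UHRF1 KO.

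**Figure D1:**
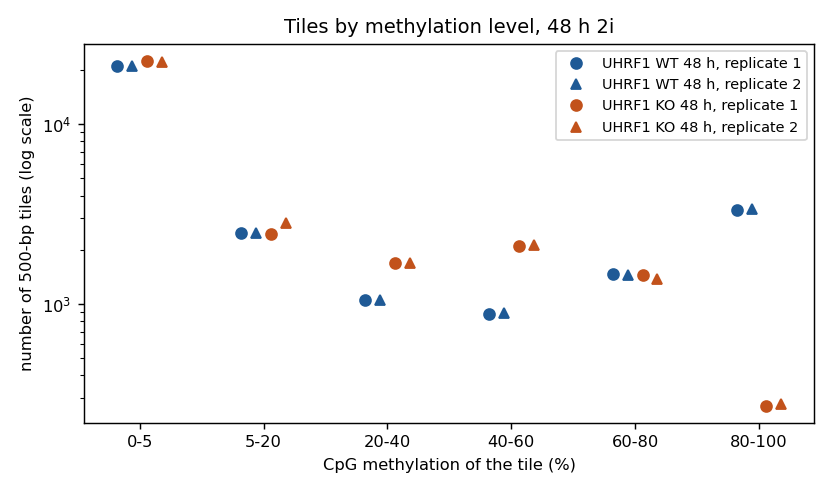
Number of 500-bp tiles (log axis) in 6 ranges of methylation level (%), for each of the 4 samples at 48 h of 2i, with circles for replicate 1 and triangles for replicate 2. UHRF1 KO samples have 272 and 276 tiles at 80 to 100%, against 3310 and 3355 in UHRF1 WT, and more tiles than UHRF1 WT between 20% and 60%.

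By a quasi-binomial test on the calls, 4488 tiles (14.8% of those tested) were lower in UHRF1 KO by 20 points or more at an adjusted p under 0.05, and 9 (0.0297%) were higher. With no minimum difference the same test called 5120 lower and 127 higher, and limma on log2 ratios of calls called 4302 lower and 2470 higher. That ratio adds a constant to both counts, so in tiles near 0 it moves with depth, which differed by genotype. The limma count without a minimum can therefore not be read as gains of methylation. The scarcity of higher tiles is stated for differences of 20 points or more. In the tiles called lower the median level was 84.2% in UHRF1 WT and 45.7% in UHRF1 KO, and the median difference was -33.5 points. The KO mean was between 20% and 60% in 3041 of them, under 20% in 657 and at 60% or more in 790. Both KO samples were under 5% in 57. Levels of the genotypes did not overlap in 4471 of the 4488, against 40.2% of all tiles that were lower without overlap and 7.01% that were higher without overlap. The tiles were called on the same levels, so the count for the 4488 is a description and no support for the difference. Thinning the files to equal calls left 25999 tiles, 2175 of them lower and 7 higher. With 50 calls as the minimum, 338 of 15502 tiles were lower and 3 higher. With each tile's own dispersion, 42 were lower and 0 higher.

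The mean over all tiles was 17.0% and 17.1% in UHRF1 WT and 10.4% and 10.6% in UHRF1 KO, a difference of -6.56 points (exact permutation test, two-sided, p = 0.333, the smallest that 2 samples against 2 can give). This mean depended on which tiles were counted. With 10 calls as the minimum it was -12.6 points over 48251 tiles, and with 50 calls -1.12 points over 15502 tiles. The number of tiles methylated at 40% or more in E14 serum was 15697 in the first set, 4846 in the main set and 268 in the last. All tiles were therefore grouped by their level in a line outside the comparison, E14 in serum (mean of 2 samples), which was known for 30023 of them.

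Tiles methylated in E14 serum carried the difference. Over the 4846 tiles at 40% or more in E14 serum, UHRF1 WT samples were at 81.1% and 81.3% and UHRF1 KO samples at 51.1% and 50.7%, which gave 81.2% ± 0.127 against 50.9% ± 0.270 (SD, n = 2) and a difference of -30.3 points (exact p = 0.333). The groups were separated by many times the spread within either of them. Unlike the mean over all tiles, this value hardly moved with coverage: it was -31.2 points with 10 calls (15697 tiles), -28.8 with 50 calls (268 tiles) and -30.0 after thinning (2653 tiles). In the class, 3641 tiles (75.1%) were called lower and 5 higher. That share was 56.1% with the replicate number as a block and 0.702% with each tile's own dispersion. The KO samples lay below the WT samples without overlap in 4560 (94.1%), against 40.2% of all tiles. In the 1200 tiles that were not called in either direction, UHRF1 WT samples were at 76.1% and 76.5% and UHRF1 KO samples both at 60.9%. Of these tiles, 933 (77.75%) were lower in UHRF1 KO without overlap.

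The difference in points was similar in the classes from 40% upward in E14 serum and smaller at 20 to 40%, and the share of the WT level that was left grew with the class. Tiles at 80 to 100% in E14 serum (2278) had 89.2% in both UHRF1 WT samples and 60.1% and 59.5% in UHRF1 KO, which was 67.0% of the WT mean. In the 1434 tiles at 60 to 80%, UHRF1 WT had 80.5% and 80.9% and UHRF1 KO 49.3% and 49.0%, or 60.9% of WT. In the 1134 tiles at 40 to 60%, UHRF1 KO was at 35.1% and 35.2%, which was 53.6% of WT, and in the 1168 tiles at 20 to 40% it was at 20.2% in both samples, or 47.3% of WT. Differences in these classes were -29.4, -31.5, -30.5 and -22.6 points from the highest class to the lowest, and the shares called lower were 75.6%, 77.2%, 71.6% and 50.5%. UHRF1 WT at 48 h was more methylated than E14 at 48 h in each of these classes: the E14 means were 82.1%, 63.2%, 42.1% and 23.1%. The classes were cut on the level of E14 itself, so part of this gap can be built into the grouping.

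Tiles at 0 to 20% in E14 serum (24009) were near 0 in every sample, with 2.43% and 2.49% in UHRF1 WT and 1.40% and 1.77% in UHRF1 KO, and 167 of them (0.696%) were called lower. In the 21333 tiles under 5%, the samples had 0.987% and 1.02% in UHRF1 WT and 0.707% and 1.09% in UHRF1 KO. The genotypes overlapped there, and each sample's level lay above the upper bound of the interval of its own mitochondrial calls.

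**Figure D2:**
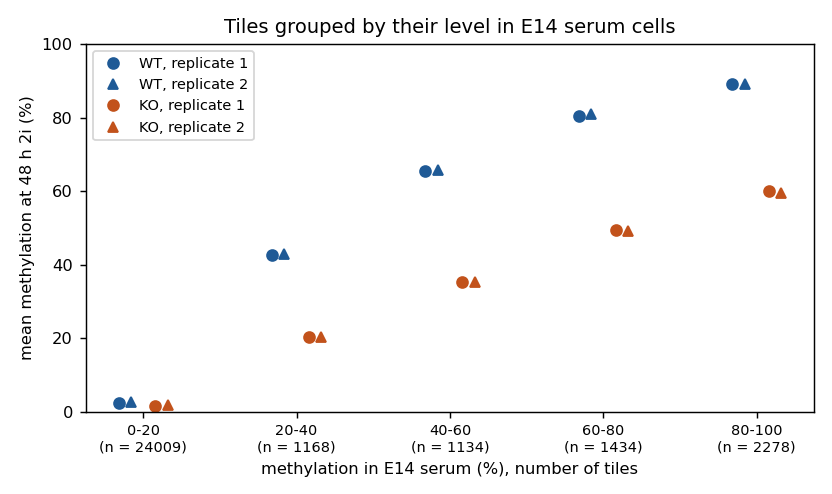
Mean methylation at 48 h of 2i (%, linear axis from 0) over tiles grouped by their level in E14 serum (%), with 1 point for each UHRF1 WT and UHRF1 KO sample and the number of tiles under each class. The KO points lie below the WT points in each class from 20% upward, by -22.6 to -31.5 points.

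Grouped by the line's own serum sample, the difference grew with the level. Tiles at 80 to 100% in UHRF1 WT serum replicate 1 (4352) had 84.2% and 84.4% at 48 h in UHRF1 WT and 52.8% and 52.3% in UHRF1 KO, and 79.6% of them were called lower. The classes at 60 to 80%, 40 to 60% and 20 to 40% differed by -26.8, -18.6 and -9.85 points, with 63.5%, 36.7% and 8.25% of their tiles called lower. These steps were larger than between the E14 classes of the same limits. In the 22889 tiles at 0 to 20% in that sample, 0.0306% were called lower. Both classifications rest on samples that the comparison at 48 h did not use.

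Tiles that resist demethylation in E14 cells were lower in UHRF1 KO by less than the others. For this, tiles at 40% or more in E14 serum were sorted by the share of that level which E14 still had after 168 h in 2i. The 535 tiles that kept under 20% had 70.4% and 70.7% in UHRF1 WT at 48 h and 35.3% and 35.8% in UHRF1 KO, a difference of -35.0 points. In the 330 tiles that kept 80% or more, UHRF1 WT had 87.7% and 88.0% and UHRF1 KO 66.7% and 66.3%, a difference of -21.3 points (exact p = 0.333). Between these ends the order was unbroken, with KO at 50.4%, 57.6%, 63.5%, 68.5% and 75.7% of the WT mean from the least to the best kept class, and the SD between the KO samples did not exceed 0.652 points in any class.

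The resistant tiles were also lower in UHRF1 KO. Of the 330, 158 (47.9%) were called lower and 1 higher, and in 290 (87.9%) the KO samples lay below the WT samples without overlap. In the 4480 other tiles at 40% or more in E14 serum, 77.2% were called lower and 94.6% were lower without overlap. Over all tiles these shares were 14.8% and 40.2%. With 70% kept as the limit, the 651 tiles differed by -23.5 points. The better kept classes also began at a higher level, so the sorting was repeated within the tiles at 80 to 100% in E14 serum. There, 347 tiles that kept under 40% had 54.5% and 54.2% in UHRF1 KO against 86.2% and 86.4% in UHRF1 WT. The 266 tiles that kept 80% or more had 69.996% and 69.2% in UHRF1 KO against 91.3% and 91.6% in UHRF1 WT. UHRF1 KO thus stood at 63.0% of WT in the poorly kept and 76.1% in the well kept tiles, whose E14 serum levels still differed, at 85.7% and 92.5%.

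**Figure D3:**
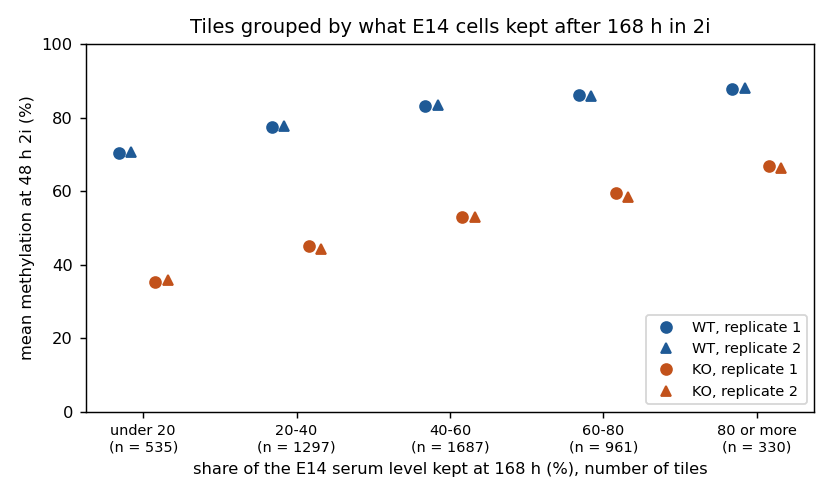
Mean methylation at 48 h of 2i (%, axis from 0) over tiles at 40% or more in E14 serum, grouped by the share of that level (%) which E14 cells kept after 168 h in 2i, with 1 point per sample. UHRF1 KO points rise from 35.3% and 35.8% in the tiles that kept under 20% to 66.7% and 66.3% in those that kept 80% or more, and stay below UHRF1 WT in every class.

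The number of CpG positions in a tile and its chromosome made little difference. Among tiles at 40% or more in E14 serum, those with 3 to 7 positions (1738) differed by -29.7 points and those with 20 or more (152) by -28.5 points. Across the 19 autosomes the mean difference ran from -32.1 points on chromosome 11 to -27.5 on chromosome 6, with 102 to 435 tiles each. Neighbouring tiles of this class could be compared in 124 pairs. Both tiles were called lower in 77 pairs and 1 of them in 39, against 75.1% of single tiles of the class. The differences of neighbours had a correlation of 0.456 across pairs, which share libraries.

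Single cytosines were at intermediate levels in UHRF1 KO as well. In the tiles called lower, 234 positions in 72 tiles had 20 or more calls in each genotype when replicates were added together. In UHRF1 WT 67.5% of them were at 80% or more, and in UHRF1 KO 3.85%. Between 20% and 80% lay 30.8% of the positions in UHRF1 WT and 86.3% in UHRF1 KO. The KO level was below the WT level at 228 of the 234, with medians of 52.4% and 86.6%. The tiles were chosen for a lower KO level in the same calls, so this count is a description and no support for the difference.

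The share of methylation left differed from tile to tile. In the 4617 tiles at 60% or more in both UHRF1 WT samples, UHRF1 KO had a median of 63.0% of the WT level, with quartiles at 52.5% and 72.4%. At the extremes, 46 tiles (0.996%) had under 25% of it and 135 (2.92%) had 90% or more. The fewest calls in any file had a median between 24 and 26 per tile in these groups, and how much of the width is counting error was not tested. E14 after 168 h of 2i, which was not used in the sorting, was at 11.9% in the tiles with under 25% left, 22.9% and 39.2% in those with 25 to 50% and 50 to 75%, 50.6% in those with 75 to 90% and 51.2% in those with 90% or more. The E14 serum levels of these groups were 47.5%, 63.1%, 78.2%, 83.0% and 76.2%, so the groups also differed before 2i.

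Tiles with most of their methylation left in UHRF1 KO at 48 h were less methylated at 72 h. In the 135 tiles with 90% or more of the WT level, UHRF1 KO was at 79.2% at 48 h and at 56.1% and 54.7% in its 72 h samples, where all 135 met the rule on calls. In the 133 of them that met it at 96 h, UHRF1 KO was at 48.9% and 48.6% and UHRF1 WT at 72.0% and 71.7%. The groups were sorted by the KO level at 48 h, so some of the fall from that time is built into the choice, while the comparison of the genotypes at 96 h is not.

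Single tiles with the largest losses were picked, so their differences are extremes and overstate the usual loss. With 50 calls as the minimum, the mean difference over 268 tiles at 40% or more in E14 serum was -28.8 points. The 6 tiles described next had the most negative differences among the 698 tiles called lower with 40 or more calls in each file and no overlap. All coordinates are of the build NCBIM37, 1-based, and the tiles carry no gene annotation here. Adjusted p-values are from the moderated quasi-binomial fit over all 30278 tiles.

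The tile chr8:87635501-87636000, with 16 CpG positions, was at 78.0% and 80.4% in UHRF1 WT and at 18.5% and 19.05% in UHRF1 KO, a difference of -60.4 points (adjusted p = 2.8e-07). Its KO serum samples were at 61.4% and 63.4% and the WT serum sample at 89.1%. At 96 h the KO samples had 39.3% and 44.4%, above their own level at 48 h. In chr12:111558001-111558500, with 20 positions, UHRF1 WT was at 89.6% and 90.9% and UHRF1 KO at 23.0% and 36.7%, a difference of -60.4 points (adjusted p = 4.36e-08). Serum levels there were 71.9% and 74.2% in UHRF1 KO and 93.0% in the 1 UHRF1 WT sample. The quasi-binomial contrast of the differences at 48 h and in serum did not pass here (adjusted p = 0.346). Nor did it pass in the tile on chromosome 8 (0.434). Both were picked for extreme differences at 48 h, so smaller ones at other times are partly built in.

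In chr10:69617001-69617500, UHRF1 WT was at 91.0% and 96.0% and UHRF1 KO at 24.4% and 46.0%, and in serum UHRF1 KO had 83.3% and 89.1%. The tile chr11:63924501-63925000 had 81.2% and 83.7% in UHRF1 WT and 27.9% and 20.9% in UHRF1 KO. In chr11:68801501-68802000 the values were 90.5% and 95.5% in UHRF1 WT and 22.2% and 47.6% in UHRF1 KO. KO replicates differed by over 20 points in the first and the last of these. The distance of the KO values from the WT values was set by the choice of tiles. The sixth tile, chr2:152283001-152283500, had 87.0% and 85.2% in UHRF1 WT and 27.5% and 36.5% in UHRF1 KO. For these 4 tiles the adjusted p-values of the fit ran from 1.05e-06 to 4.33e-06, and E14 cells had between 7.58% and 50.7% in them after 168 h.

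The 10-kb windows described next were picked for holding the most tiles called lower, so their counts show no clustering, and 75.1% of tiles at 40% or more in E14 serum were called in any case. The first was chr10:80610001-80620000, where all 5 tiles that met the rule were called. The strongest, chr10:80611001-80611500, had 54.3% and 67.0% in UHRF1 WT and 11.4% and 7.84% in UHRF1 KO, a difference of -51.0 points (adjusted p = 2.12e-06). Next to it in the window, chr10:80612501-80613000 had 78.7% and 83.2% in UHRF1 WT and 61.9% and 47.8% in UHRF1 KO. That call rests on few KO calls and was lost without KO replicate 1 or 2 (adjusted p = 0.057 and 0.474), without WT replicate 2 (0.149) and after thinning (0.364). The 3 other tiles of this window, between 80616001 and 80617500, differed by -29.1, -32.2 and -35.6 points, and the last of them did not pass without KO replicate 1 (adjusted p = 0.0559).

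The second window, chr4:141030001-141040000, was 1 of 5 windows with 4 tiles called lower and was taken for its lower chromosome number. Of its 5 tiles, chr4:141030001-141030500 had 77.3% and 78.3% in UHRF1 WT and 25% and 32% in UHRF1 KO, and chr4:141035001-141035500 had 86.1% and 76.7% in UHRF1 WT and 35.6% and 31.8% in UHRF1 KO. The tiles chr4:141031001-141031500 and chr4:141032001-141032500 between them differed by -44.3 and -29.8 points, and the call of the second was lost without WT replicate 2 (adjusted p = 0.0511) or KO replicate 1 (0.0733). The last, chr4:141034001-141034500, had 60.2% and 68.7% in UHRF1 WT and 46.7% and 36.4% in UHRF1 KO and did not pass (adjusted p = 0.0625). No KO sample reached the level of a WT sample in any of the 5 tiles, which the choice of the window largely builds in. Of all tiles at 40% or more in E14 serum, 94.1% were lower without overlap.

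Highly methylated tiles with the smallest change were also described. There were 18 tiles at 80% or more in both UHRF1 WT samples with 100 or more calls in every file, and the 4 with the smallest change still differed by -15.5 to -19.4 points. Choosing tiles by a high WT level builds a part of such a difference in. The tile chr13:104739001-104739500 was at 93.8% and 93.6% in UHRF1 WT and 81.8% and 74.4% in UHRF1 KO. Tile chr6:59983001-59983500, which lies in a window of high H3K9me2, was at 91.4% and 92.5% in UHRF1 WT and 78.0% and 73.7% in UHRF1 KO. The difference of this tile was -16.1 points, and -7.36 points with its level taken as the mean of its positions. In chr12:20240001-20240500 the levels were 93.3% and 89.8% against 73.0% and 76.4%, and in chr5:15194001-15194500 they were 81.1% and 82.3% against 69.3% and 55.2%.

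All 4 of these small changes passed the test on the calls (adjusted p from 8.22e-06 to 0.000748) and fell short of the 20 points asked for. The tile on chromosome 5 crossed that limit without WT replicate 1 (-20.05 points) and without KO replicate 1 (-26.5 points), and without KO replicate 2 it differed by -12.4 points and did not pass the test (adjusted p = 0.0951). With limma it did not pass either (adjusted p = 0.0993). E14 cells kept 80.6% to 87.2% methylation in these tiles after 168 h, and their UHRF1 WT samples of 168 h had 76.2% to 86.9%. UHRF1 KO had 46.8% to 59.97% at 96 h. All 4 tiles hold positions among the most deeply covered of the files, and none of them met the rule once such pile-ups were left out.

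Few tiles were higher in UHRF1 KO, and in 6 of the 8 with values in the 3 serum files both KO serum samples were above the WT serum sample, against 14.6% of all tiles with such values. Of the 9, 5 had 40 or more calls in each file and no overlap. The tile chr7:7252001-7252500, with 26 positions, was at 0% and 0.552% in UHRF1 WT and at 49.4% and 43.5% in UHRF1 KO (adjusted p = 7.48e-17). In serum it was at 1.11% in UHRF1 WT and 62.0% and 56.0% in UHRF1 KO, and E14 serum samples had 35.7% and 38.2%, so UHRF1 WT was the line without methylation here. This tile also had 735 and 580 calls in the KO files against 585 and 543 in the deeper WT files, and it did not meet the rule without pile-up positions.

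The tile chr14:79701001-79701500 was at 3.55% and 3.85% in UHRF1 WT and 31.3% and 25.7% in UHRF1 KO, with 8.16% in WT serum and 30.5% and 47.8% in KO serum. In chr10:126626501-126627000 the values were 8.73% and 12.1% against 27.4% and 35.5%, and in serum 22.7% against 42.1% and 33.3%. In both tiles the KO mean at 48 h was below that in serum. The remaining 2 rest on 1 KO sample: chr17:22606001-22606500 had 45.5% and 44.4% in UHRF1 WT against 57.3% and 81.2%, and chr5:106161001-106161500 had 25% and 15.7% against 26.1% and 62.5%. Without KO replicate 2 their differences were 12.4 and 5.71 points (adjusted p = 0.454 and 0.823), and that of the tile on chromosome 10 was 17.0 points.

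**Figure D4:**
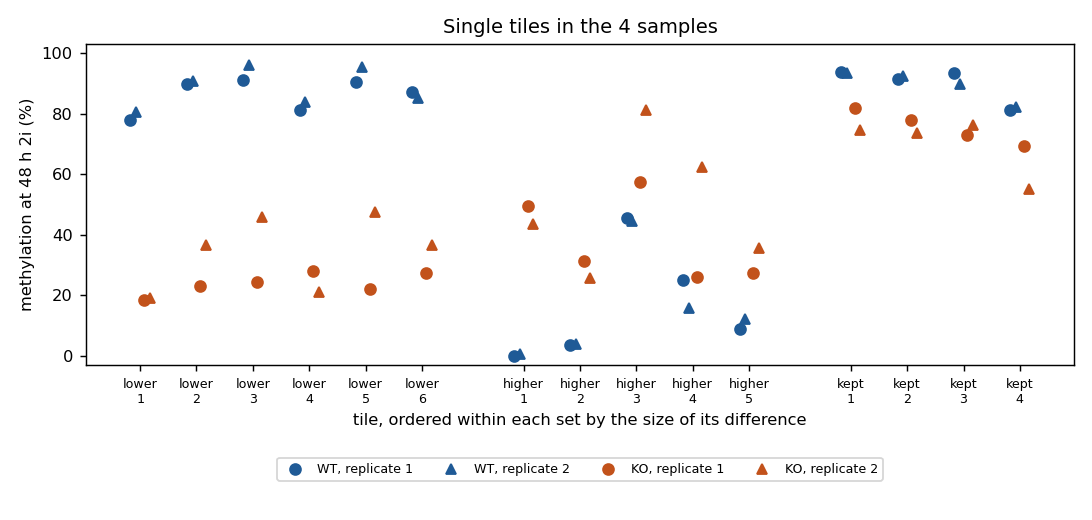
Methylation (%) at 48 h of 2i in the 4 samples for the 6 tiles called lower, the 5 called higher and the 4 highly methylated tiles with the smallest change, numbered by the size of their difference. In the first set WT points lie at 78.0% or more and KO points at 47.6% or less, and in the last set KO points lie between 55.2% and 81.8%.

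The difference at 48 h was larger than the one already present in serum. Tiles at 40% or more in E14 serum that met the rule in the serum files as well numbered 2978. In serum they were at 89.2% in UHRF1 WT (n = 1) and at 80.1% and 80.6% in UHRF1 KO, and at 48 h at 80.4% and 80.8% in UHRF1 WT and 50.8% and 50.3% in UHRF1 KO. The WT samples thus kept 90.2% and 90.6% of the serum level and the KO samples 63.2% and 62.6% of their own, a difference of -27.5 points (exact p = 0.333).

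At the level of single tiles, the change of the difference between times was tested by the contrast of the 2 differences, on the logit scale of the fit. Against serum, 52 of 26436 tiles (0.197%) differed, 49 of them with a more negative difference at 48 h. On the percent scale, an alternative chosen after seeing the data, 808 tiles differed, 778 of them more negative. With limma on log2 ratios of calls none passed (1521 at an unadjusted p under 0.05), and 18 passed with the replicate number as a block. Without single samples of 48 h, from 23 to 37 tiles passed, and fewest without KO replicate 1. UHRF1 WT serum is 1 sample, so the contrast and the calls in serum assume that it varies like the other groups of the fit. KO was called lower than WT in 737 tiles in serum (2.79%), 569 of which were also called lower at 48 h, against 2921 of all 26436.

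One tile (0.00385% of 25993, named here after its values were seen) changed between 24 h and 48 h. In chr5:125772501-125773000, UHRF1 KO had 97.5% and 95.8% at 24 h and 39.3% and 41.7% at 48 h, while UHRF1 WT had 94.1% and 91.7% and then 95.6% and 93.8% (adjusted p = 0.0268). The call was lost without WT replicate 1, without WT replicate 2 and without KO replicate 1 of 48 h. At 24 h, KO was called lower in 1799 tiles (6.92%), and 1521 of them were also called lower at 48 h, against 2820 of all 25993. Mean differences over the 25993 tiles were -3.54 points at 24 h and -4.79 at 48 h.

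Against 96 h, 3 tiles of 30103 (0.00997%) passed the same contrast, all more negative at 48 h, and are named after their values were seen. In chr7:52770501-52771000, UHRF1 KO went from 7.69% and 9.09% at 48 h to 27.4% and 22.7% at 96 h while UHRF1 WT went from 45.2% and 57.7% to 8.33% and 4.76%, so the order of the genotypes was turned. In chr2:29736001-29736500, UHRF1 WT came down from 61.7% and 64.9% to 18.6% and 15.8%, and UHRF1 KO had 15.4% and 4.76% and then 12.4% and 25.8%. The third was the tile on chromosome 8 named first above (adjusted p = 0.00723). None of the 3 calls was left without WT replicate 2, without KO replicate 1 or without KO replicate 2 of 48 h. KO was called lower in 3754 tiles at 96 h (12.5%), 2968 of them also called lower at 48 h, against 4430 of all 30103. The comparisons between times share the samples of 48 h.

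Over the full course, 48 h was near the time of widest separation. The 1474 tiles at 40% or more in E14 serum that met the rule in every UHRF1 sample had 87.7% in UHRF1 WT serum and 78.2% and 78.7% in UHRF1 KO serum. The difference of the KO mean from the WT mean was -19.96 points after 24 h, -29.95 points after 48 h, -30.7 points after 72 h and -27.1 points after 96 h. By 48 h UHRF1 KO was at 49.6% and 49.0%, a level that UHRF1 WT (79.1% and 79.4% at 48 h) reached between 96 h (60.13% and 60.004%) and 168 h (41.9% and 40.7%). UHRF1 KO had 33.5% and 32.6% at 96 h and 41.1% and 40.9% at 168 h, so that the genotypes were level at 168 h. The 2 KO files of 168 h stood apart from the other UHRF1 files: 50.6% and 49.5% of their positions had 1 call, against 14.3% to 30.8%. The part of this in the level at 168 h was not tested. These are values over samples with no test between times, and time since deletion rises along the course together with time in 2i.

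**Figure D5:**
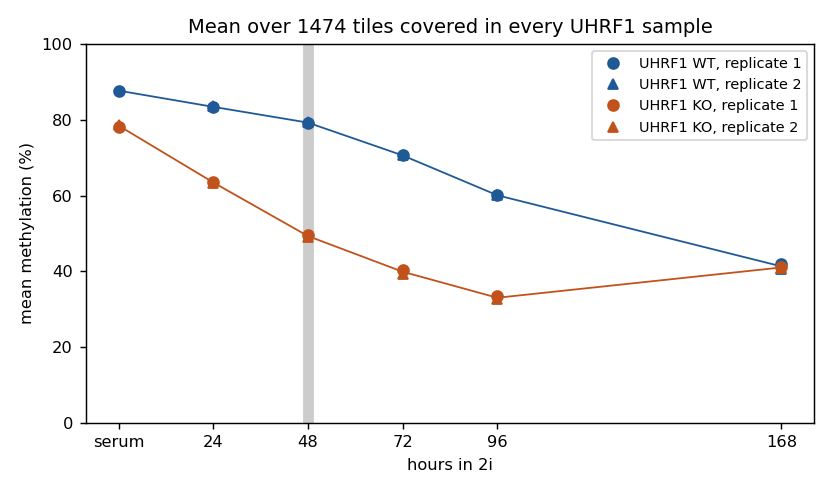
Mean methylation (%, axis from 0) over 1474 tiles against hours in 2i, with 1 point per UHRF1 WT and UHRF1 KO sample, lines through the group means and a grey bar at 48 h. At 48 h UHRF1 WT lies at 79.1% and 79.4% and UHRF1 KO at 49.6% and 49.0%, and at 168 h the genotypes meet.

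H3K9me2, a histone mark that UHRF1 binds, was available on the same build from ChIP followed by bisulfite sequencing of E14 cells. Windows of 10 kb in the top 10% of bound over input calls in 2i were called high, and 293 tiles lay in them. These tiles were at 71.7% and 71.8% in UHRF1 WT and 50.9% and 50.3% in UHRF1 KO, and the 28683 tiles of other windows at 15.9% and 16.0% and at 9.67% and 9.92%. The difference of the high tiles was thus more negative by -14.9 points (exact p = 0.333), but the classes differ in how many methylated tiles they hold. Among tiles at 40% or more in E14 serum the sign was reversed, at 5.00 points: 224 high tiles had 84.3% and 84.4% in UHRF1 WT and 59.2% and 58.5% in UHRF1 KO, and 4298 others had 80.9% and 81.1% and then 50.7% and 50.3%. UHRF1 KO was at 69.8% of WT in the high tiles of this class and at 62.3% in the others, with 61.6% and 75.6% of the tiles called lower. E14 serum levels also differed, at 79.5% in the high tiles and 74.1% in the others, and the share left grew with that level. The part of this in the gap was not tested. With windows ranked by enrichment in serum instead, an alternative added after seeing the data, the gap within these tiles was 2.71 points (313 high tiles), and 73.2% of the high and 75.2% of the other tiles were called lower.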

How the data were processed

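RRBS was compared between UHRF1 KO and UHRF1 WT at 48 h of 2i, 2 samples each. The authors deposited, per cytosine, counts of methylated and unmethylated calls and the percent they give, in the layout of Bismark. The submitters' processing notes name Trim Galore 0.3.5, Bismark 0.12.3 and Bowtie2, and the study's methods name NCBIM37. On filters and removal of PCR copies nothing is given in the sources used here, so calls cannot be taken as independent molecules. The deposited percent matched the counts in every file used.

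Calls were summed in 500-bp tiles. Each tile was fitted by a quasi-binomial logistic model on the counts (R 4.3.3). Dispersions were moderated by squeezeVar of limma 3.58.1 with a prior from the 8955 tiles at 5 to 95% and with a spread above 0 (prior 28.1 degrees of freedom, dispersion 1.55), and tested by a quasi-likelihood F test with Benjamini-Hochberg adjustment over all tiles. A call needed an adjusted p under 0.05 and 20 points between sample means. Data were also simulated for this comparison with 30278 tiles. The fit recovered 6, 22, 39 and 47 of 50 tiles changed by 20, 30, 40 and 50 points, with 0 false calls. Only 200 tiles were changed there, fewer than were called in the data, which makes the adjusted p harder to pass. Most unchanged tiles were near 0, where a false call of 20 points is unlikely. These counts therefore do not carry over to the data. Values per sample were tested by exact permutation. For H3K9me2, positions over 20 calls were left out and a window needed 50 input calls.

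Tiles named: the 6 lower and up to 6 higher with the largest differences (40 calls in each file, no overlap), the 4 with the smallest change at 80% or more in both UHRF1 WT samples (100 calls in each file), and the 2 windows of 10 kb with the most tiles called lower. Tiles of 1 chromosome were not named. The members, classes and rules were chosen with earlier results of these data known. Alternatives changed the minimum calls and positions, deep positions, depth, level measure, test, dispersion, block and samples.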

Additional observations from a re-analysis of the deposited data

Results flagged for a closer look

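Results of 48 h that differed from those of another time by a test of the difference itself were 52 tiles against serum, 1 against 24 h and 3 against 96 h. Of the 52, 49 were more negative at 48 h, and the most negative was chr7:150481001-150481500, where UHRF1 KO went from 62.5% and 75% in serum to 34.9% and 9.09% while UHRF1 WT went from 11.7% (n = 1) to 54.1% and 30% (adjusted p = 6.29e-07). At 48 h the genotypes overlapped in this tile and its difference was not called (adjusted p = 0.21), and the lone WT serum value lay apart from 49.06% and 49.03% in UHRF1 WT at 24 h. In chr7:73415501-73416000, the next, UHRF1 KO went from 65.0% and 62.5% to 29.0% and 14.3% and UHRF1 WT from 55.1% to 89.4% and 84.2%. Both were named after their values were seen, and both rest on a single WT serum sample. On simulated data the contrast recovered 53 of 200 tiles changed by 40 points against serum (26436 tiles), 73 against 24 h and 104 against 96 h. In that simulation most such tiles were missed against serum and 24 h, and about as many missed as found against 96 h. Recovery depends on how many tiles change, which is not known for the data, so these shares do not carry over directly. No group had the 4 samples needed to look for a sample far from the others.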

How the results depend on the processing

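Tiles lower in UHRF1 KO numbered 4488 and were 12922 with 10 calls, 338 with 50 calls, 2175 after thinning, 42 with the dispersion of each tile alone and 1542 (of 22700) in a fit on all UHRF1 samples; without single samples they ran from 3323 to 4040. With each tile's own dispersion 2 residual degrees of freedom are left. Tiles higher numbered 9 and were 30 with 10 calls, 3 with 50 calls, 21 with 10 points, 127 with no minimum difference (2470 with limma and no minimum), 4 with levels as the mean of positions and 0 with each tile's own dispersion (440 at an unadjusted p under 0.05); without single samples they ran from 7 to 13. Including tiles of spread 0 in the prior, added after seeing the data, gave 4458 and 9. The mean over all tiles stayed negative in every setting run, from -12.6 to -1.12 points.

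The 52 tiles against serum became 0 with limma, 808 on the percent scale, 18 with the block and 17 with 50 calls, and 23 to 37 without single samples. The 1 tile against 24 h became 2 with 10 points and with no minimum, 0 with limma (1284 unadjusted), 19 on the percent scale, 0 with 50 calls (469 unadjusted) and 0 to 3 without single samples. The 3 against 96 h became 0 with limma (5557 unadjusted), 198 on the percent scale, 0 with 50 calls (610 unadjusted) and 0 to 3 without single samples. The limma ratio moves with depth in tiles near 0, so its unadjusted counts are no measure of change.

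H3K9me2-high minus other tiles turned from -14.9 to 5.00 points among tiles at 40% or more in E14 serum (2.71 there with serum enrichment) and was -6.94 with 50 calls; resistant tiles stayed between -23.5 and -17.7 points. The cause of these changes was not tested.

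Replicate numbers 1 and 2 occur in both genotypes but nothing ties equal numbers together, and deviations of samples with the same number had a correlation of 0.0171. With the replicate number as a block, 3310 tiles were lower and 7 higher.

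For the tiles named, no difference changed sign under any alternative run, and the 6 tiles called lower lost their call only with each tile's own dispersion. The 5 tiles called higher lost it in 17 of 72 alternative values and the 9 called tiles of the windows in 20 of 125. The tile of the windows that was not called, chr4:141034001-141034500, was called with 10 calls (adjusted p = 0.0319) and without WT replicate 1 (0.0491). Among these, chr10:80612501-80613000, chr17:22606001-22606500 and chr5:106161001-106161500 lost it with limma (adjusted p = 0.0537, 0.116 and 0.135) and with the replicate block (0.105, 0.115 and 0.231), and chr10:80617001-80617500 after thinning (0.0717). The shallower KO libraries limit the precision of single tiles.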

Other observations

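On chromosome X, which was not part of the comparison, 498 tiles met the same rule, and 61 of them were at 40% or more in both UHRF1 WT samples. These 61 had 74.0% and 74.6% in UHRF1 WT and 47.8% and 47.7% in UHRF1 KO, and 39 of the 61 were lower by 20 points or more. The 5539 autosomal tiles chosen in the same way had 79.1% and 79.2% in UHRF1 WT and 48.9% and 48.5% in UHRF1 KO, and 4534 of the 5539 were lower by 20 points or more. The differences were -26.5 points on chromosome X and -30.5 on autosomes, with no test between them. Choosing tiles by the WT level raises that level slightly in both sets.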
